A study of Mus musculus with 6 samples.

Results

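The subject of this report is 10 immediate early genes that code for transcription factors: Fos, Fosb, Fosl1 and Fosl2, Jun, Junb and Jund, Egr1 and Egr2, and Atf3. They were taken by name: every array probe whose gene name in the scanner files is one of these symbols was used, 12 of 41174 probes in all, and each of the 10 genes had at least 1 probe. They are 10 of 27343 gene names on the array and 10 of the 19611 genes that were bright enough to be tested. Kidney RNA of mice was hybridised to 6 single-colour Agilent arrays, 1 sample per array. Wild-type mice gave 2 arrays after a sham operation and 2 after ischaemia/reperfusion injury of the kidney, whose blood flow is stopped and then let back. Gpr97-deficient mice, called deficient below, lack an adhesion G protein-coupled receptor that is now named Adgrg3, and they gave 1 sham and 1 injured array. All samples are labelled male. Strain, age, length of ischaemia, time of collection and the way the receptor gene was disrupted are unknown here. The arrays of a group are numbered 1 and 2, and nothing in the labels says that they are from separate animals. The p-values therefore measure the spread between these samples only, which may be technical for the sham pair. The wild-type injured arrays differ in Xist and Y-linked signal (values below), so they are not repeats of the same RNA sample.

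Immediate early genes are switched on within minutes of a growth factor, stress or injury signal, without new protein synthesis, and most of their RNAs are short-lived. MAP kinases act on factors that already sit at their promoters, such as serum response factor with its Elk partners, CREB and ATF family proteins. Fos and Jun proteins are leucine zipper proteins that pair to form AP-1, the factor that binds the AP-1 site. Fos proteins need a Jun partner, whereas Jun proteins can also pair with each other. Egr1 and Egr2 are zinc finger proteins that bind GC-rich sites. Atf3 is a stress-induced leucine zipper protein that pairs with Jun proteins or with itself. In the kidney, Fos, Jun, Egr1 and Atf3 are known as early RNAs of the ischaemic tubule.

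The promoters of the members are shown because the 10 genes were higher together on the injured arrays. RefSeq promoter windows (GRCm38.p6, 250 bases before to 50 after a transcript start) were searched for 8 of the 10 members. No window was found for Fosl1, and Egr1 was left out of the search, so its promoter was not examined. The 150 bases before the start are given for Fos (chr12:85473740-85473889, plus strand), Jun (chr4:95052223-95052372, minus strand), Junb (chr8:84978749-84978898, minus strand) and Atf3 (chr1:191183334-191183483, minus strand). For Fosb (chr7:19310081-19310110, minus strand) and Egr2 (chr10:67537793-67537822, plus strand) 30 bases are given, since the annotated gene reaches further upstream than the start of that window. Each is written 5′ to 3′ on the strand of the gene, and the capitals mark the motifs searched for, which were chosen after the sequences had been seen.
Fos: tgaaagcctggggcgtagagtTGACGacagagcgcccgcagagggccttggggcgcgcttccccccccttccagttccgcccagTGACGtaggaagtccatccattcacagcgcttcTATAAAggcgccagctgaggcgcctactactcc
Fosb: gcgggTGACGcaagcGCGGGGGCGggtccc
Jun: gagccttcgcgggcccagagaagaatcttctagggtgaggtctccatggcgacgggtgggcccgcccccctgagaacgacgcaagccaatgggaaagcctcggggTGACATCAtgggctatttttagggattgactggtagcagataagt
Junb: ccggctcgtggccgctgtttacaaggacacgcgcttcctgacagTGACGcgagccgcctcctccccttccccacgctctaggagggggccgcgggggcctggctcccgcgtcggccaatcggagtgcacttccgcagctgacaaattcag
Egr2: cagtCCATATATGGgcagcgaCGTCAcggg
Atf3: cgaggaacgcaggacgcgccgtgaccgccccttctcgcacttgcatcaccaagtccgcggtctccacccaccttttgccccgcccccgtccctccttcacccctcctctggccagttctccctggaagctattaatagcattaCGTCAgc
The motifs were searched on both strands, and none of the matches printed overlaps another motif. The CRE core TGACG, bound by CREB and ATF proteins, was present in a window of 5 of the 8 members (Atf3, Egr2, Fos, Fosb and Junb), against 23% of 27025 genes with a window. Genes are counted once if any of their windows holds the motif (Egr2 has 5 windows), and 20.8% of all 32851 windows of 300 bases hold it. The form TGACATCA, known from the Jun promoter, was found in Jun alone among the 8, against 4.18% of genes and 3.62% of windows. The CArG box, the binding site of serum response factor, was found in the windows of Egr2 alone among the 8, against 1.81% of genes and 1.63% of windows, and it is the first capital stretch of the Egr2 line. The GC-rich Egr site GCGNGGGCG was found in Fosb and Fosl2 (6.27% of genes, 5.55% of windows), and it is the second capital stretch of the Fosb line. The TATA box TATAAA was found in Fos and Junb (15.7% of genes, 13.6% of windows), in Junb after the start and so outside the bases shown. The AP-1 site TGANTCA was found in 0 of the 8 members and in 8.97% of genes and 7.81% of windows. A match is a description of the letters only. Bases more than 250 before a start, and the Egr1 promoter, were not searched, so a missing match covers the windows alone.

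All levels are log2 signals minus the 75th percentile of their array, and levels of different probes cannot be set against each other. Between 62.9% and 71.1% of probes were well above background on an array, and 0 spots were saturated. Adgrg3, the gene named in the genotype, stood at 0.20 and 0.02 on the wild-type sham arrays and at 1.06 and 1.18 on the wild-type injured arrays, against -5.38 (sham) and -5.75 (injured) on the deficient arrays. Wild-type sham 1 and wild-type injured 2 lay on slide 1, and the other 4 arrays lay on slide 2, so that each wild-type pair is split over the slides and both deficient arrays share slide 2. On wild-type injured 1, labelled male, Xist, the RNA that coats a silenced X chromosome, had a level of 4.05, while no other array exceeded -5.45, and 0 of 4 Y-linked genes were well above background there, against 4 of 4 on each other array. Results are therefore also given without that array. The proximal tubule markers Lrp2, Cubn, Slc34a1, Slc5a2 and Aqp1 were well above background on all 6 arrays. Their summed level was 8.91 to 9.13 on the sham arrays, 8.33 on wild-type injured 1, 7.56 on the deficient injured array and 7.22 on wild-type injured 2. Of 7 neutrophil markers 3 were well above background on all 6 arrays, and their summed level over the 7 was 1.27 and 1.78 on the wild-type sham arrays, 3.58 and 4.88 on the wild-type injured arrays, and 5.86 (sham) and 4.76 (injured) in the deficient mice. The brightest probe, that of S100a9, weighs most in this sum. Singly, 5 of the 7 were higher after injury in wild type and 2 lower. The 2 were Ltf (-0.77) and Camp (-0.365), well above background on 4 and 3 of 6 arrays. The summed level of 4 macrophage markers ran from 3.53 to 4.87 on the sham arrays and from 3.09 to 4.27 on the injured arrays, a sum in which the brightest probe weighs most. Of these 4, Cd68, a lysosomal protein of macrophages, was 2.49 higher after injury over both genotypes (SE 0.36, adjusted p 0.260 with limma), while Adgre1, Csf1r and Lyz2 differed by -0.35, -0.83 and -0.52. Of 3 adipocyte markers only Cidec was bright enough to be tested, and it stood at -4.05 to -2.17 on the sham arrays and at -0.27 to 0.69 on the injured arrays, while Adipoq and Plin1 were not. The part of these cell types in the results was not tested. RNA of whole tissue cannot tell apart more cells of a type and more RNA per cell.

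The first comparison asked what the injury does to the 10 genes. All 10 were higher in injured than in sham kidneys over both genotypes, by a median of 1.88 log2 units, whereas the median of all 19611 genes was -0.06 and 43.3% of them were higher. The difference was largest for the Fos family member Fosl1 (13.1-fold) and for Egr2 (10.1-fold), and smallest for Jund (1.36-fold). Fosl1 was not well above background on wild-type sham 1. The size depended on the handling of background. With normexp background correction the difference was 1.89 rather than 3.71 log2 units for Fosl1, and 1.94 rather than 3.33 for Egr2. On 6 of the 10 genes (Fosl1, Fosl2, Jun, Junb, Egr2 and Atf3) the 3 injured arrays all lay above the 3 sham arrays, against 9.69% of 19604 genes with a value on every array. Fos, Egr1, Fosb and Jund overlapped between the groups. None of the 10 passed the test: with limma and Benjamini-Hochberg adjustment over all genes 0 of 19611 genes were called (0%), and at an unadjusted p under 0.05 limma counted 1091 genes higher (5.56%) and 1317 lower (6.72%), among them 7 of the 10 members, all higher.

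**Figure D1:**
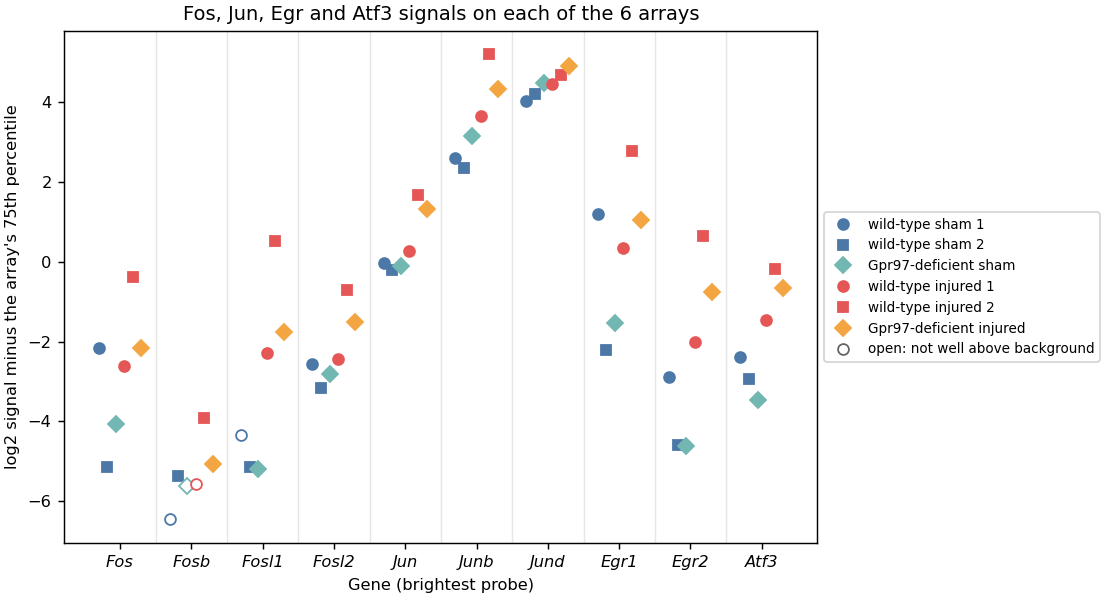
Signal of each gene on each of the 6 arrays, as log2 signal minus the 75th percentile of the array (vertical axis) by gene (horizontal axis, brightest probe). Colours and shapes stand for the arrays, and open symbols are arrays on which the probe was not well above background. Wild-type injured 2 is the highest array for 9 of 10 genes, and for Fos and Egr1 wild-type sham 1 lies above wild-type injured 1.

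Fos, the founding member of the family, was read by 1 probe (NM_010234, A_52_P262219, mm9 chr12:86817900-86817959, plus strand) spotted 10 times on each array. Its level was -2.16 on wild-type sham 1 and -5.14 on wild-type sham 2, and -2.60 on wild-type injured 1 and -0.37 on wild-type injured 2. In deficient mice it was -4.08 after sham surgery and -2.16 after injury. The groups overlapped, because wild-type sham 1 was above wild-type injured 1 and level with the deficient injured array. The wild-type means were -3.65 ± 2.11 (SD, n = 2) after sham and -1.49 ± 1.58 (SD, n = 2) after injury, so that their difference of 2.16 (SE 1.32, adjusted p 0.821 with limma) was about as large as the spread within each group. Without wild-type sham 2 it was 0.68 and without wild-type sham 1 it was 3.65, the ends of its range when 1 array was left out. Over both genotypes the difference was 2.08 (SE 0.97, adjusted p 0.465).

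Fosl1, also called Fra-1, is a Fos protein without the strong activating end of Fos, and a target of AP-1 itself (NM_010235, A_51_P308796, mm9 chr19:5455496-5455555, plus strand). Its sham levels were -4.33 (wild type 1, not well above background), -5.14 (wild type 2) and -5.20 (deficient). Its injured levels were -2.29 (wild type 1), 0.51 (wild type 2) and -1.77 (deficient). Every injured array was thus more than 2 log2 units above every sham array, and the injured arrays themselves ranged over 2.80 units. The wild-type difference was 3.85 (SE 1.04, adjusted p 0.769 with limma), where the probe was measured on 1 of the 2 sham arrays, and that over both genotypes was 3.71 (SE 0.77, adjusted p 0.267).

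Fosl2, or Fra-2, another Fos protein of this kind, had 2 probes. The brighter (NM_008037, A_52_P484903, mm9 chr5:32459624-32459683, plus strand) gave -2.57 and -3.18 on the wild-type sham arrays 1 and 2, -2.44 and -0.72 on the injured arrays 1 and 2, and -2.81 (sham) and -1.50 (injured) in deficient mice. Injured arrays were higher, though wild-type injured 1 exceeded wild-type sham 1 by little. The difference over both genotypes was 1.30 (SE 0.49, adjusted p 0.397 with limma), and the wild-type difference was 1.29 (SE 0.68, adjusted p 0.806). The dimmer probe (A_51_P507242, mm9 chr5:32455088-32455147) was well above background on wild-type injured 2 and the deficient injured array only. For a probe below background in a group the difference is a bound, the mean of the brighter group against, per array of the dimmer group, the probe's own signal or the lowest signal that counts as well above background, whichever is higher. By this measure the dimmer probe was at least 1.36-fold higher after injury in wild type, where 1 of 2 injured arrays measured it, and at least 2.15-fold higher in the deficient pair.

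Fosb, best known from the long-lived splice form that builds up in stimulated neurons, was measured on the fewest arrays (NM_008036, A_51_P138378, mm9 chr7:19888477-19888536, minus strand). It was well above background on 3 of 6 arrays: wild-type sham 2 (-5.37), wild-type injured 2 (-3.91) and the deficient injured array (-5.07). On the arrays that did not measure it the signal was -6.46 (wild-type sham 1), -5.56 (wild-type injured 1) and -5.62 (Gpr97-deficient sham). Only wild-type injured 2 stood clear of the others. The wild-type difference was 1.18 (SE 0.73, adjusted p 0.824 with limma), with 1 of 2 arrays measured in each group, and it was -0.19 within slide 2. The Gpr97-deficient injured array was at least 1.45-fold above its sham array.

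Jun, the partner that most Fos proteins use, was read by 1 probe in 10 spots (NM_010591, A_51_P325914, mm9 chr4:94715864-94715923, minus strand). The 3 sham levels were close to each other, at -0.03 (wild type 1), -0.22 (wild type 2) and -0.10 (deficient). The injured levels were 0.27 (wild type 1), 1.67 (wild type 2) and 1.33 (deficient). The groups did not overlap, and the gap between them was smaller than the spread among the injured arrays. Jun was 1.20 higher over both genotypes (SE 0.40, adjusted p 0.363 with limma) and 1.09 higher in wild type (SE 0.54, adjusted p 0.806).

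Junb, a Jun protein that activates more weakly than Jun and can hold it back, had 2 probes whose target stretches overlap (NM_008416, mm9 chr8:87500881-87500940 for A_51_P159201 and chr8:87500843-87500902 for A_51_P159194, minus strand). The brighter gave 2.60 and 2.35 on wild-type sham arrays 1 and 2, 3.16 on the deficient sham array, 3.65 and 5.19 on wild-type injured arrays 1 and 2, and 4.32 on the deficient injured array. All 3 injured arrays were above all 3 sham arrays. The wild-type difference was 1.94 with the brighter probe (SE 0.59, adjusted p 0.769 with limma) and 1.72 with the other probe, and over both genotypes Junb was 1.68 higher (SE 0.46, adjusted p 0.326).

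Jund, the Jun protein that resting cells already hold in quantity, differed least (NM_010592, A_51_P357744, mm9 chr8:73224436-73224495, plus strand). Its levels were 4.03 and 4.198 on wild-type sham arrays 1 and 2, 4.45 and 4.69 on wild-type injured arrays 1 and 2, and 4.49 (sham) and 4.91 (injured) in deficient mice. Within each genotype injured was above sham, and across genotypes the deficient sham array lay above wild-type injured 1. The difference was 0.44 over both genotypes (SE 0.16, adjusted p 0.382 with limma) and 0.45 in wild type (SE 0.25, adjusted p 0.807).

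Egr1, the zinc finger factor of the serum response, was read by 1 probe (NM_007913, A_51_P367866, mm9 chr18:35024395-35024454, plus strand). Its level was 1.20 on wild-type sham 1 and -2.21 on wild-type sham 2, and 0.34 on wild-type injured 1 and 2.78 on wild-type injured 2. The deficient arrays stood at -1.53 after sham and 1.04 after injury. As for Fos, wild-type sham 1 lay among the injured arrays, above both wild-type injured 1 and the deficient injured array. The wild-type means were -0.50 ± 2.41 (SD, n = 2) after sham and 1.56 ± 1.73 (SD, n = 2) after injury, a difference of 2.07 (SE 1.48, adjusted p 0.846 with limma), and over both genotypes the difference was 2.23 (SE 1.09, adjusted p 0.482). Between the wild-type sham arrays Egr1 thus differed by more than between injured and sham means. Leaving out 1 wild-type array moved the wild-type difference to between 0.36 (without sham 2) and 3.77 (without sham 1).

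Egr2, also called Krox20 and known for its role in myelinating cells, was read in 10 spots (NM_010118, A_51_P173043, mm9 chr10:67004758-67004817, plus strand). It gave -2.89 on wild-type sham 1, -4.60 on wild-type sham 2 and -4.61 on the deficient sham array. After injury it gave -2.00 on wild-type injured 1, 0.65 on wild-type injured 2 and -0.76 on the Gpr97-deficient array. No injured array fell among the sham arrays, although wild-type sham 1 stood 1.71 above wild-type sham 2. Egr2 was 3.33 higher over both genotypes (SE 0.84, adjusted p 0.307 with limma) and 3.07 higher in wild type (SE 1.12, adjusted p 0.778).

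Atf3, the stress-induced member (NM_007498, A_52_P452689, mm9 chr1:192994547-192994606, minus strand), had the lowest adjusted p of the 10 over both genotypes. The sham levels were -2.38 (wild type 1), -2.95 (wild type 2) and -3.48 (deficient), and the injured levels were -1.45 (wild type 1), -0.19 (wild type 2) and -0.65 (deficient). The groups did not overlap, and the sham arrays ranged over less than the injury difference. Atf3 was 2.17 higher over both genotypes (SE 0.44, 4.51-fold, adjusted p 0.263 with limma) and 1.85 higher in wild type (SE 0.53, adjusted p 0.769).

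Wild-type kidneys alone gave the same direction with a wider error. All 10 genes were higher in the mean of wild-type injured arrays, by 0.45 (Jund) to 3.85 (Fosl1), with a median of 1.89 against -0.05 for all genes. For 7 of 10 genes, all but Fos, Fosb and Egr1, both injured arrays lay above both sham arrays, against 16.2% of all genes. Limma called 0 of 10 members and 0 of 19611 genes (0%), with 632 genes higher (3.22%) and 622 lower (3.17%) at an unadjusted p under 0.05, and 3 of 10 members higher at that p (Fosl1, Junb and Atf3). Without wild-type injured 2 the median of the members was 0.95. Without wild-type injured 1, the array with the Xist signal, it was 2.60.

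The slides allow 3 comparisons of 1 injured with 1 sham array that have no array in common. On slide 1 the 10 genes were a median of 2.03 higher on wild-type injured 2 than on wild-type sham 1, against -0.11 for all genes, and the signal of 9 of 10 (all but Jund) was at least 2-fold higher, against 6.15% of all genes. For Fosb, one of the 9, the signal on wild-type sham 1 was below background, so a 2-fold difference is not shown. On slide 2 they were 1.40 higher on wild-type injured 1 than on wild-type sham 2, against -0.003 for all genes, and 6 of 10 were at least 2-fold higher, against 5.87% of all genes. The Gpr97-deficient injured array was a median of 1.67 above its sham array, against -0.05 for all genes. Pairing by slide thus gave the same direction for 9 of 10 genes in all 3 pairs, against 18.7% of all genes, with Fosb as the exception. Fos, Fosl1, Junb, Egr1, Egr2 and Atf3 were at least 2-fold higher in each of the 3 pairs, 6 of 10 genes against 1.16% of all genes. Within slides Fos differed by 1.79, 2.54 and 1.92 (slide 1, slide 2, Gpr97-deficient) and Egr1 by 1.58, 2.55 and 2.57, so both genes, which overlapped across slides, were higher on the injured array of each pair. Egr2 differed by 3.54, 2.60 and 3.85. Each value is 1 array against 1 array and has no replicate check. With slide as a block in the fit, 9 of 10 genes had an unadjusted p under 0.05 over both genotypes, against 17.7% of all genes in that fit and 12.3% without the block, both directions counted, and the lowest adjusted p of a member was 0.110 with limma.

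**Figure D2:**
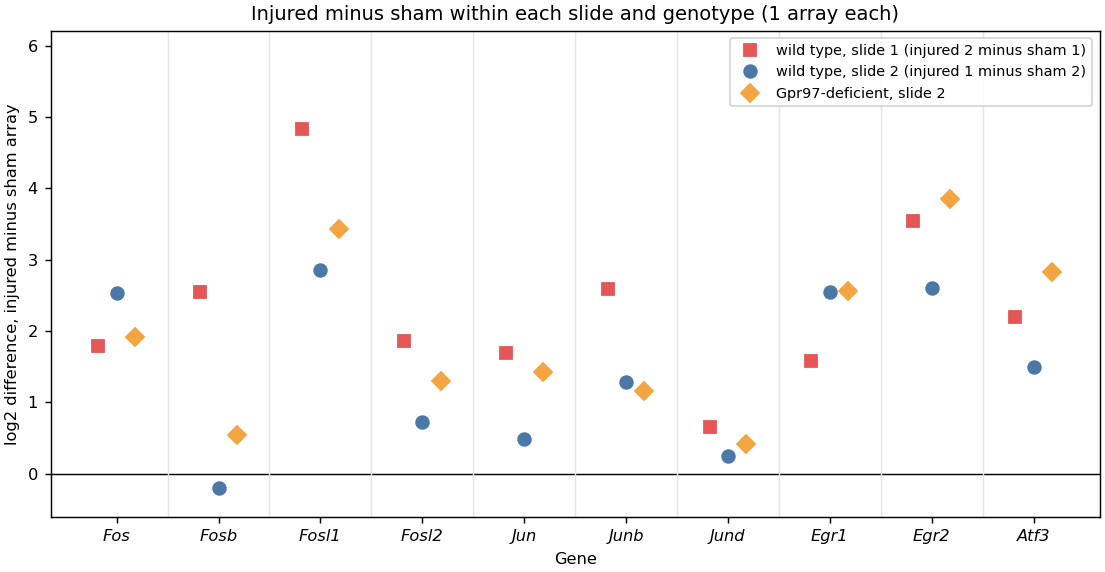
Injured minus sham signal in log2 units (vertical axis) for each gene (horizontal axis), for the 3 pairs of arrays that lie on the same slide and have the same genotype. Each point is 1 array minus 1 array. All points lie above 0 except that of Fosb on slide 2 (-0.19), and the highest is Fosl1 on slide 1 (4.84).

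The sham kidneys were unequal in some of these genes and closer in others. Wild-type sham 1 was at least 2-fold above wild-type sham 2 for Egr1 (10.65-fold), Fos (7.87-fold) and Egr2 (3.27-fold), 3 of 10 genes against 9.39% of all genes. Jun, Junb, Atf3 and Fosl2 were 0.19 to 0.60 log2 units higher on wild-type sham 1, and Jund differed by -0.17. Fosl1 and Fosb were below background on wild-type sham 1, so their sham difference was not measured. Among 35 other immediate early genes measured, 3 were at least 2-fold higher on wild-type sham 1, a share near that of all genes: Nr4a1, Nr4a2 and Ptgs2, the last below background on wild-type sham 2. These arrays lie on different slides, so a difference between slides and one between samples cannot be told apart.

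**Figure D3:**
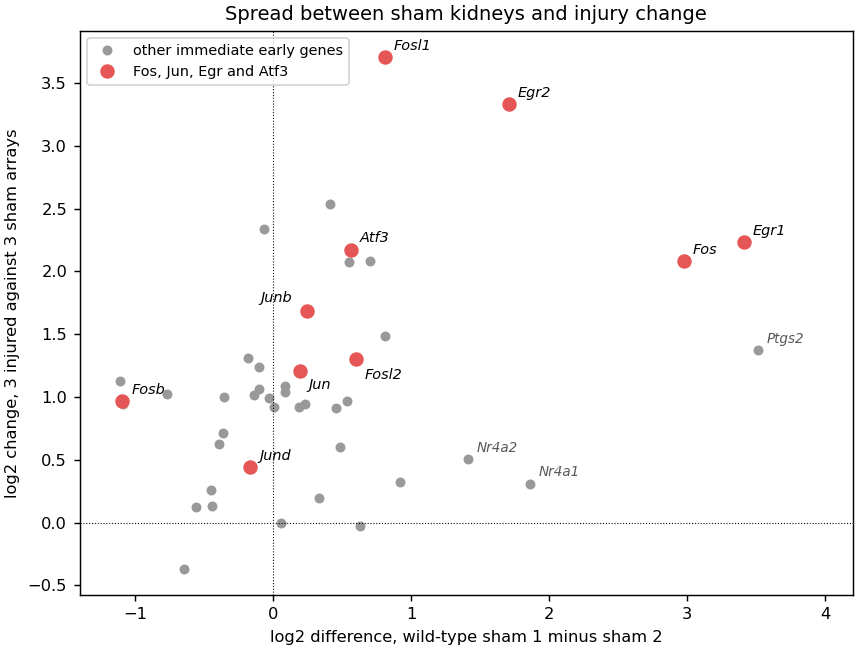
Wild-type sham 1 minus wild-type sham 2 in log2 units (horizontal axis) against the injury change over both genotypes (vertical axis), for the 10 genes (red) and the 35 other immediate early genes measured (grey). Fos and Egr1 lie far to the right at 2.98 and 3.41, with an injury change of 2.08 and 2.23, while Fosl1 lies highest at 3.71. Fosl1 and Fosb are drawn at their signal on wild-type sham 1, which was below background, and so is Ptgs2 at its signal on wild-type sham 2.

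The injured arrays were unequal too. Wild-type injured 2 was above wild-type injured 1 for all 10 genes, by a median of 1.69 against -0.02 for all genes, and at least 2-fold for 9 of 10 genes (all but Jund) against 7.72% of all genes. It was the highest of the 6 arrays for the same 9 genes, against 22.1% of all genes. The wild-type injured arrays lie on different slides and differ in Xist and Y-linked signal, so a difference between slides and one between samples cannot be told apart. The Gpr97-deficient injured array fell between the wild-type injured arrays for 9 of 10 genes and above both for Jund. The proximal tubule marker sum had the reverse order on these 3 arrays (8.33, 7.56 and 7.22 on wild-type injured 1, Gpr97-deficient injured and wild-type injured 2), and its part in the result was not tested.

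The probes of Fos, Egr2 and Jun, each spotted 10 times, show the error of reading 1 array. The SD between spots on an array was 0.06 to 0.39 for Fos, 0.07 to 0.18 for Egr2 and 0.04 to 0.08 for Jun, after 1 spot of Fos was left out on 1 array and 1 of Jun on 2 arrays. They cover the reading of spots on 1 array only, and not hybridisation, slide or sample preparation.

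**Figure D4:**
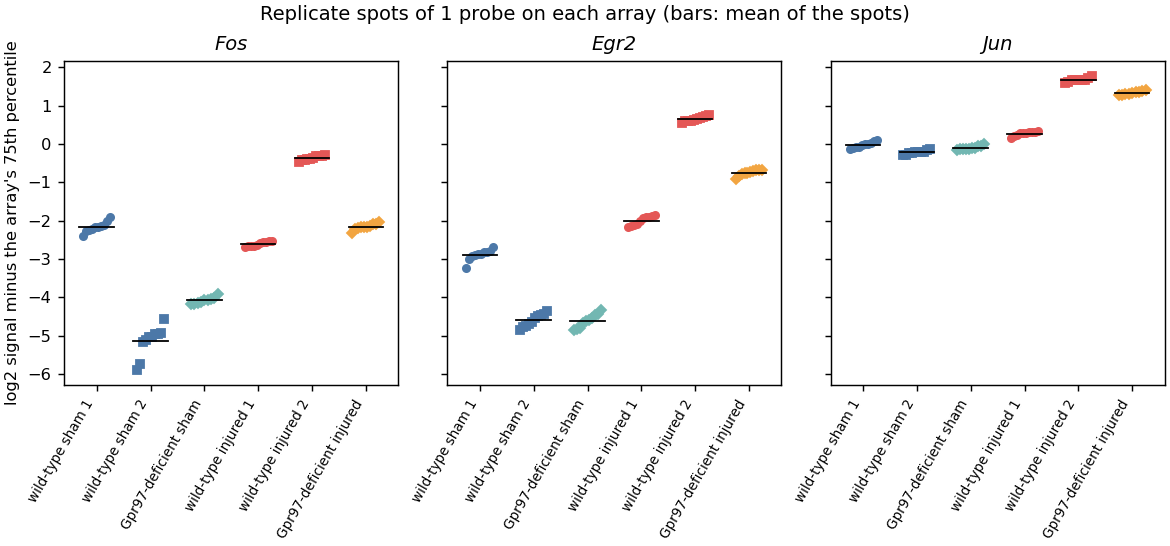
Every spot of the Fos, Egr2 and Jun probes (9 or 10 spots an array) as log2 signal minus the 75th percentile of the array (vertical axis), by array (horizontal axis), with the mean of the spots as a bar. The spots of an array lie close together, less so for Fos on wild-type sham 2 (-5.89 to -4.57). For Fos the spots of wild-type sham 1 (-2.39 to -1.91) lie above all those of wild-type sham 2.

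The comparison of genotypes asked whether loss of Gpr97 goes with other levels of these genes. With 2 Gpr97-deficient against 4 wild-type arrays, 4 genes were higher and 6 lower in Gpr97 deficiency, from -0.78 for Egr1 (SE 1.16) to 0.36 for Jund (SE 0.17), with a median of -0.17 against -0.01 for all genes. Limma called 0 of 10 members and 0 of 19611 genes (0%), and at an unadjusted p under 0.05 0 members and 271 genes higher (1.38%) and 368 lower (1.88%), with an adjusted p of at least 0.993 for every member. With slide as a block, which compares the genotypes within slide 2, all 10 genes were higher in Gpr97 deficiency, by 0.12 (Fosb) to 0.75 (Fos), with an adjusted p of 0.9997 for the lowest with limma. In that fit limma counted 915 of 19611 genes at an unadjusted p under 0.05, both directions counted, and Fos alone of the members (p 0.038). The direction thus depended on which wild-type arrays were compared. How many of all genes were higher in the fit with slide as a block was not counted. On slide 2 the only wild-type injured array is wild-type injured 1, the array with the Xist signal and without Y-linked signal. Wild-type injured 1 minus the deficient injured array was below 0 for all 10 genes, from -1.25 (Egr2) to -0.44 (Fos), whereas 53.4% of all genes were above 0. Wild-type injured 2 minus the same array was above 0 for 9 of 10 genes, with a median of 1.02.

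The injury difference was also set against genotype. In the deficient pair all 10 genes were higher after injury, from 0.42 (Jund) to 3.85 (Egr2), and 8 of 10 were at least 2-fold higher against 4.56% of all genes, all but Fosb and Jund. The Gpr97-deficient minus wild-type injury difference ran from -0.78 for Junb (SE 1.02) to 0.98 for Atf3 (SE 0.92), with 5 genes on each side of 0. Limma called 0 of 10 members and 0 of 19611 genes (0%), and at an unadjusted p under 0.05 it counted 0 members, 122 genes higher (0.622%) and 169 lower (0.862%). Every member had an adjusted p of 0.9999. With 1 array per deficient group the standard errors ran from 0.43 (Jund) to 2.57 (Egr1), and the data do not show that the genotypes respond alike. The order of the 4 group means was the same for Fos, Fosl1, Egr1 and Egr2: deficient sham, wild-type sham, deficient injured and wild-type injured, from low to high. The other members had other orders, and the share of all genes with this order was not counted. The wild-type means take in slide 1, whereas both deficient arrays lie on slide 2. With slide as a block the genotype difference of these genes was above 0, at 0.75 (Fos), 0.23 (Fosl1), 0.69 (Egr1) and 0.62 (Egr2). The deficient sham array differed from the wild-type mean by -0.43 (Fos), -0.46 (Fosl1), -1.03 (Egr1) and -0.87 (Egr2), and the deficient injured array by -0.67, -0.88, -0.53 and -0.08, all less than the SD of the wild-type group concerned.

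Over 45 pairs of members Pearson's r had a median of 0.85 (Spearman's rho 0.83), a description over 6 arrays that share the injury and the slide difference. Fos and Egr1 were the most alike (0.99), Egr2 and Atf3 followed each other at 0.98 and Jun and Fosl2 at 0.98, and the least alike were Jund and Egr1 (0.38). Many other genes followed Fos more closely than most of its fellow members did. For this, 4103 genes measured on all arrays and ranging over at least 1 log2 unit were ranked by r with Fos. Egr1 was at 2, Egr2 at 83, Fosl2 at 169, Atf3 at 330, Jun at 477 and Junb at 495. Fosl1 and Fosb, not measured on every array, and Jund, with a range of 0.88, were not among the genes ranked. Their r with Fos was 0.87 (Fosl1), 0.475 (Fosb) and 0.43 (Jund). Ranked in the same way, the closest member was Fos at 1 for Egr1, Fosl2 at 20 for Jun and Egr2 at 12 for Atf3. Among the 4103 genes the most like Fos were Armcx2 (r = 0.999), Egr1 and Maoa, the mitochondrial enzyme that breaks down serotonin and noradrenaline (0.984). The most like Egr1 were Fos, Peak1 (0.992), a kinase-like scaffold, and Armcx2 (0.990). For Jun they were Vmp1 (0.996), a membrane protein of autophagy, Trib3 (0.996), a pseudokinase of the stress response, and Pvr (0.995), the poliovirus receptor homologue. For Atf3 they were Inhbb (0.996), a subunit of activin and inhibin, Ccl2 (0.995), the monocyte chemokine, and Mtmr11 (0.993).

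Of 39 other immediate early genes listed, 35 were measured, and 32 of these were higher after injury over both genotypes (43.3% of all genes were), with a median of 0.95. Limma called 0 of them, and 17 were higher and 0 lower at an unadjusted p under 0.05, against 5.56% and 6.72% of all genes. In 16 all injured arrays were above all sham arrays (9.69% of all genes), and 4 (Myc, Maff, Nfil3 and Cebpd) were at least 2-fold higher in all 3 within-slide pairs (1.16%). Maff, a small Maf protein that pairs with other leucine zipper factors, stood at -2.46, -2.87 and -1.62 on the sham arrays and at -0.86, 1.09 and 0.43 on the injured arrays (wild type 1, wild type 2, Gpr97-deficient), 2.54 higher (SE 0.55). Myc, a driver of growth and division, stood at -1.27, -1.21 and -0.68 on the same sham arrays and at 0.34, 2.06 and 1.45 on the injured ones, 2.33 higher (SE 0.47). Cebpd, an inflammatory leucine zipper factor, stood at 1.98, 1.43 and 2.05 against 3.81, 4.16 and 3.71, with wild-type injured arrays closer to each other than for every member but Jund, and was 2.07 higher (SE 0.26, adjusted p 0.260 with limma). Phlda1, a growth factor response gene, was 1.43 higher in wild type (SE 0.70), with 3.36 on wild-type injured 2 and 1.05 to 1.48 on the other injured arrays, against 0.87 to 1.11 on the sham arrays.

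Upstream and feedback genes had medians closer to 0. Of 24 upstream kinases and factors listed 23 were measured, with a median of 0.01 over both genotypes (0.005), and 0 called by limma. At an unadjusted p under 0.05 there were 2 higher (Map3k1 and Map2k3) and 0 lower, a share near the 5.56% of all genes that were higher. Map3k1, a kinase above JNK, was 0.90 higher over both genotypes (SE 0.19), from 2.31 to 2.85 on the sham arrays to 3.02 to 3.75 on the injured arrays. In wild type Map2k6, a kinase above p38, differed by -1.33 (SE 0.75), Mrtfb, a coactivator of serum response factor, by 0.62 (SE 0.32), and Map2k3, also above p38, by 0.60 (SE 0.29). Of 16 feedback phosphatases and inhibitors of MAP kinase signalling 15 were measured, with a median of 0.24, 0 called, and 0 higher and 0 lower at an unadjusted p under 0.05. Dusp10, a phosphatase of JNK and p38, was at least 1.70-fold higher after injury in wild type, while Dusp4, Spry2 and Nab2, a corepressor of Egr1, were 0.86 (SE 0.54), 0.74 (SE 0.38) and 0.70 (SE 0.54) higher there. Of 18 other leucine zipper factors, all measured, the median was 0.09, 0 were called, and 2 were higher (Atf5 and Mafk) and 1 lower (Maf) at an unadjusted p under 0.05. Atf5, a stress factor, was 1.04 higher in wild type (SE 0.47), Maf differed by -0.71 (SE 0.42), Mafk by 0.52 (SE 0.24), and Nfe2l2, the oxidative stress factor NRF2, by 0.42 (SE 0.29).

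Of 22 textbook AP-1 and Egr target genes 21 were measured, 17 of them higher after injury over both genotypes (43.3% of all genes were), with a median of 1.32. Limma called 0, with 13 higher and 1 lower (Ccnd1, the cyclin of early G1 phase) at an unadjusted p under 0.05, against 5.56% and 6.72% of all genes. In 14 all injured arrays were above all sham arrays (9.69% of all genes), and the signals of 7 were at least 2-fold higher in all 3 within-slide pairs (1.16%), Mmp3 and Il6 among them with sham signals below background. Timp1, an inhibitor of matrix metalloproteinases, stood at -1.50, -1.54 and -1.67 on the sham arrays and at 2.59, 4.02 and 2.60 on the injured arrays (wild type 1, wild type 2, Gpr97-deficient), 4.64 higher (SE 0.41, adjusted p 0.236 with limma). Mmp3, stromelysin, was below background on every sham array and at least 5.90-fold higher after injury in wild type and at least 14.1-fold in the deficient pair. Il6, the inflammatory cytokine, was at least 2.11-fold higher in wild type, measured on 1 of 2 injured arrays, and at least 1.31-fold higher in the deficient pair.

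**Figure D5:**
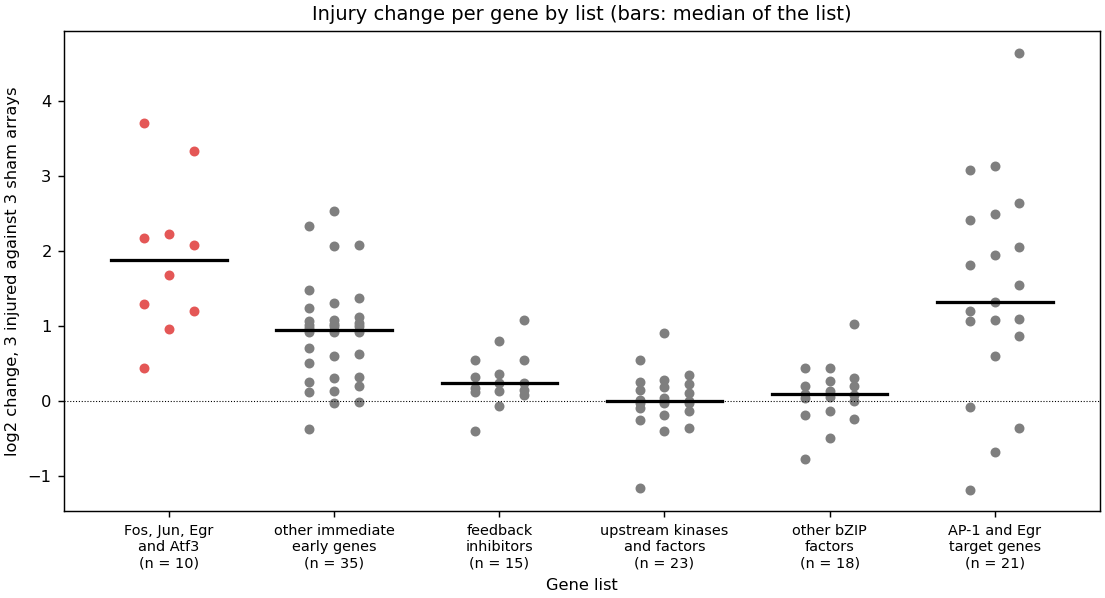
Injury change over both genotypes in log2 units (vertical axis; 3 injured against 3 sham arrays) of each measured gene, by gene list (horizontal axis, with the number of genes), with the list's median as a bar. The medians are 1.88 for the 10 genes, 0.95 for other immediate early genes, 0.24 for feedback inhibitors, 0.01 for upstream kinases and factors, 0.09 for other leucine zipper (bZIP) factors and 1.32 for target genes.

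Over both genotypes 7 of 10 members had an unadjusted p under 0.05 with limma, against 12.3% of all genes in either direction. That number of members, like the share of all genes, depended on the arrays and on the processing. It was 3 without either deficient array (6.39% of all genes), 4 without wild-type sham 2 (8.13%), 4 without wild-type injured 2 (8.58%), 6 without wild-type sham 1 (8.99%) and 7 without wild-type injured 1 (17.4%). With all 6 arrays it was 5 with normexp background correction (4.61%) and 5 without the filter on signal over background (7.32%). It was 6 with the authors' values (11.9%) and 9 with slide as a block (17.7%). All 10 genes were higher after injury in each of these fits. The spread between the 2 arrays of each wild-type group sets the precision of the fit of group means, with 2 residual degrees of freedom. The fit over both genotypes has 3, because its residual also takes in how far the injury difference departs between the genotypes.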

How the data were processed

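Kidney RNA of 6 samples was measured on 1-colour Agilent arrays. Per the file headers the deposited scanner files hold an intensity per spot (processed signal), read with Feature Extraction 10.7.1.1 (slide 1) or 10.7.3.1 (slide 2), protocol GE1_107_Sep09, probe positions in mm9, and other columns with flags. The authors' deposited series values were read as log2 (Spearman's rho with the scanner signals at least 0.99997; medians 6.07 to 6.09; their centring is unknown); the submitters' processing notes name limma.

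Each array's log2 signal was set relative to its 75th percentile. Of 45018 spots 43379 were used, without control spots and flagged outliers, and repeated spots were averaged. Genes took names from RefSeq by accession (27668 of 41174 probes) or by symbol (6060), or kept the file's (7446). A gene took its brightest probe and was tested if well above background on at least 2 arrays. Where probes disagree they are given apart. No arrays were identical (0 of 15 pairs). Limma 3.58.1 in R 4.3.3 (package data.table, version 1.17.8) fitted group means, or surgery plus genotype, to all 6 arrays, two-sided, called at an adjusted p under 0.05; the fits were tested on simulated data. Slide was tested as a block and within slides. The members and lists, and the rule for names (every member; per list, up to 4 genes with the largest wild-type change; per 4 members, the 3 most like genes), were chosen with earlier results of these data known. Some genes that the rule takes are left out of the text.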

Additional observations from a re-analysis of the deposited data

How the results depend on the processing

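No member was called by limma under any alternative, over 14 settings for injury and for genotype and 12 for the injury effect by genotype, where a fit without either Gpr97-deficient array could not be made. The lowest adjusted p was 0.395 for injury in wild type, 0.110 over both genotypes (slide as a block), 0.667 for Gpr97 deficiency and 0.9997 for the injury effect by genotype. No paired analysis was possible because no sample number in the labels is shared between groups; slide, a batch, was blocked instead. All 10 members stayed higher after injury in both injury fits under every alternative (8 of 8 where every array had to be well above background), and the exception was Fosb within slide 2 (-0.19). Genes called over both genotypes numbered 1 with quantile normalization, 1 with the authors' values, 1 with slide as a block and 3 with limma's trended, robust prior, which called 1 gene for Gpr97 deficiency. With normexp the median of all genes in wild type was 0.28 rather than -0.05, and that of the members 1.27. Jund, at 0.052 in that fit, was above 0 but below the median of all genes. Leaving out 1 array gave a member median of 0.95 to 2.60 in wild type, and 1.26 to 2.34 over both genotypes. Per gene the wild-type difference then ranged most for Egr1 (0.36 to 3.77), Fos (0.68 to 3.65), Fosb (0.35 to 2.002), Fosl2 (0.43 to 2.16) and Jun (0.39 to 1.79), in highest over lowest. For Gpr97 deficiency the sign turned for Fosb with quantile normalization (0.40) and the authors' values (0.396), for Fosl2 with normexp (-0.16), and with slide as a block for Fos (0.75), Fosb (0.12), Fosl1 (0.23), Egr1 (0.69), Egr2 (0.62) and Atf3 (0.13). For the injury effect by genotype it turned for Fosl2 with quantile normalization (-0.044), normexp (-0.25), the authors' values (-0.051) and the mean of probes (-0.51), and for Jund with normexp (0.35). Without 1 array, the genotype difference ranged from -1.20 to 0.071 for Fos, -0.34 to 0.38 for Fosb, -0.30 to 0.44 for Fosl2, -0.14 to 0.46 for Jun, -0.10 to 0.68 for Junb, -1.10 to 0.039 for Egr2 and -0.81 to 0.17 for Atf3. The injury effect by genotype ranged from -1.73 to 1.24 for Fos, -1.46 to 0.19 for Fosb, -1.81 to 0.99 for Fosl1, -0.85 to 0.88 for Fosl2, -0.36 to 1.04 for Jun, -0.15 to 0.086 for Jund, -1.21 to 2.21 for Egr1 and -0.54 to 2.11 for Egr2. The cause of these turns was not tested. Signal over background limits Fosb (3 of 6 arrays) and Fosl1 (5 of 6).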
